A study of Mus musculus with 6 samples.

Results

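Complement, coagulation, and the plasminogen system are 3 sets of plasma proteases and cofactors that are made largely in the liver, and 40 of their genes were followed here in Hepa1-6 tumors. The 40 genes were taken by exact symbol from a list of complement components, coagulation factors, fibrinogen chains, and members of the plasminogen and protein C systems, with the serpin inhibitors left out. The rule uses no measured value, although the list was drawn up with earlier results of these data known. Of the 40 genes, 37 were among the 26167 genes of the expression tables, 31 passed the filter on low counts, and Mbl1, Mbl2, and C8b were not analysed here. The tumors grew from Hepa1-6 cells, a hepatoma line of the mouse, placed under the skin of female C57BL/6J mice aged 6 to 8 weeks on day 0. The Sora-treated group (3 tumors, numbered 2, 3, and 4 in the labels) came from mice that received sorafenib (Sora), an inhibitor of RAF and of several receptor tyrosine kinases, by ip injection of 10 mg/kg on days 9, 11, 13, and 15. The control group (3 tumors, numbered 1, 3, and 4) carried the same cells without Sora, and what these mice were injected with in its place is not given in the sources used here. Each tumor gave 1 RNA-seq library, and the whole tumor, with host stroma, vessels, and immune cells, went into it.

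Complement starts on 3 routes. In the classical route, C1q binds antibody and carries the proteases C1r and C1s. In the lectin route, mannose-binding lectins carry the MASP proteases, and in the alternative route factor B is cut by factor D. All routes build convertases that cleave C3 and then C5, and C5b gathers C6, C7, C8, and C9 into the membrane attack complex. Coagulation starts when tissue factor meets factor VII, runs through factors X and V to thrombin, and ends in fibrin made from the 3 fibrinogen chains and crosslinked by factor XIII. The plasminogen activators tPA (Plat) and uPA (Plau) form plasmin, which dissolves fibrin, and uPA acts on the cell surface through its receptor (Plaur). Hepatocytes are the main source of most of these proteins, while stromal, endothelial, and myeloid cells also make some of them.

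The total counts lay between 31073830 and 36205814 reads per tumor, and a gene's level in a tumor is given as CPM, its reads relative to the TMM-scaled total of that tumor. Counts were at hand for 5 tumors, and those of Sora-treated tumor 4 were worked out from its FPKM, in which reads are divided by gene length and library total. The markers of hepatoma cells matched the labelled tissue in part: 11 of 14 passed the filter, with Alb at 1994 to 3510 CPM and Afp at 655 to 1000 CPM, while Apoh, Ahsg, and Fgf21 lay near 0. Of 10 markers of mature hepatocytes, 8 were in the table, and their sum reached only 9.18 to 21.3 CPM, with Cyp3a11, Cyp2c29, and Cps1 near 0. The labels do not say that each tumor came from a separate mouse, so the p-values measure only the spread between these tumors, which may be technical.

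The 37 genes spanned a wide range of levels, which are compared between genes as FPKM because this unit is divided by gene length. Averaged over the 6 tumors, 16 genes stood at 10 FPKM or more, 8 between 1 and 10 FPKM, 11 under 1 FPKM, and 2 (C8a and F13b) had no read in any tumor. C3, the protein on which all routes meet, was at the top with 294 FPKM (227 to 378), followed by C1s1 with 242 FPKM (179 to 264). The ranges of these genes overlapped each other, and both lay above that of every other member. Plat followed with 112 FPKM (85.8 to 146), Cfb with 88.9 FPKM (81.7 to 97.0), Plaur with 81.8 FPKM (62.9 to 111), and Fgb with 61.5 FPKM (51.3 to 73.4), and each of these ranges overlapped the next. At the other end, Plg, which encodes the zymogen plasminogen itself, averaged 0.0165 FPKM and 0 to 4 reads per tumor, and F12, which starts the contact pathway, averaged 0.0232 FPKM and 0 to 4 reads. For C8a and F13b, a count of 0 allows at most 0.0829 to 0.0965 CPM, depending on the depth of the tumor. Unlike the other CPM values, this limit is 3 reads relative to the total count without TMM scaling, and it covers counting error only. Levels thus differed within 1 pathway: the plasminogen activators were abundant and their substrate was at the limit of detection, and C3 was abundant while Hc, which encodes C5, averaged 0.225 FPKM.

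**Figure D1:**
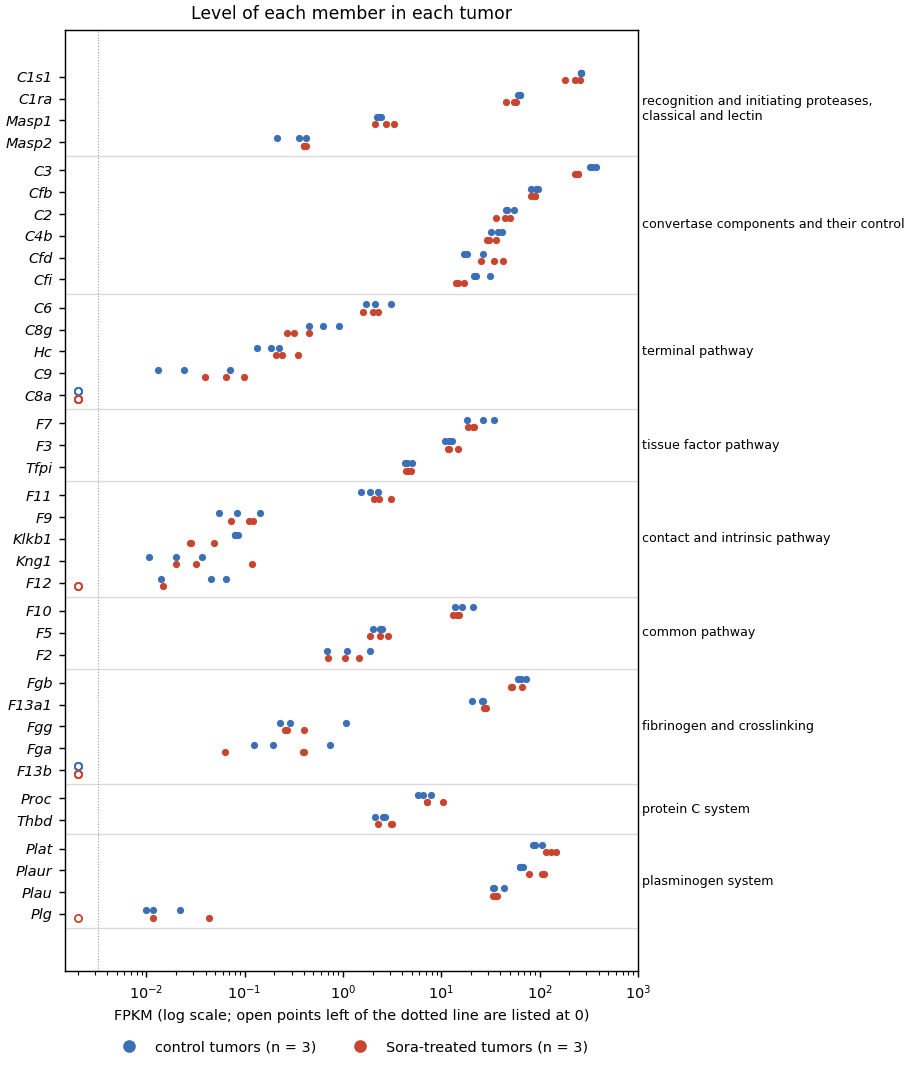
Level of each of the 37 members in each tumor as FPKM on a log scale, grouped by role, with control tumors in blue and Sora-treated tumors in red (3 each). Open points left of the dotted line are listed at 0. C3 and C1s1 stand above all other members, while C8a and F13b are listed at 0 in all 6 tumors.

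To see which of these genes differed with Sora, the counts of all genes were compared between the groups with edgeR's quasi-likelihood test. Of the 31 members tested, Plat and Plaur were higher and C3 and Cfi were lower in Sora-treated tumors at an adjusted p under 0.05. These are 2 of 31 (6.45%) in each direction, beside 1.94% of all 16513 genes tested called higher and 1.34% called lower. At an unadjusted p under 0.05 there were 4 members higher and 4 lower, where all genes gave 8.53% and 8.69%. The groups did not overlap for 3 members that were higher (9.68% of 31, all genes 10.6%) and for 6 that were lower (19.4%, all genes 11.6%). The median log2 fold change of the 31 members was -0.06, with 14 above 0 and 17 below, and that of all genes tested was -0.000369. The sign of the members' median turned without control tumor 4 (0.07), and it was -0.12 without control tumor 1 and -0.0059 without control tumor 3. In complement, 9 of 13 genes tested had a negative fold change (median -0.21), whereas in coagulation and fibrinolysis 10 of 18 had a positive one (median 0.03).

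**Figure D2:**
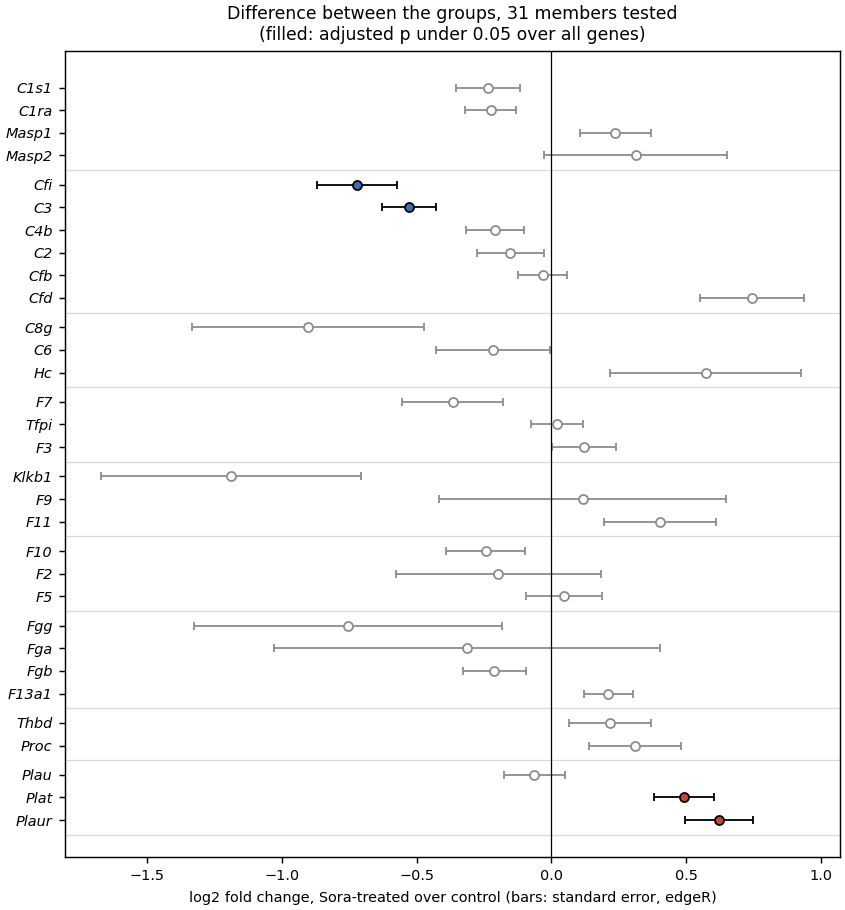
Log2 fold change, Sora-treated over control, of the 31 members tested, with bars for the standard error from edgeR, grouped by role in the same order as the plot of levels. Filled points mark an adjusted p under 0.05 over all genes: Cfi at -0.72 and C3 at -0.53 (blue), Plat at 0.49 and Plaur at 0.62 (red).

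C3, which carries the convertases and tags surfaces for uptake, fell in Sora-treated tumors. It was at 1638, 2015, and 1785 CPM in control tumors 1, 3, and 4 and at 1175, 1260, and 1335 CPM in Sora-treated tumors 2, 3, and 4. The highest treated tumor lay below the lowest control tumor. The means were 1813 ± 190 and 1257 ± 79.7 CPM (SD, n = 3 each), 0.693 of the control level, and the log2 fold change was -0.53 (standard error, SE, 0.099, with an adjusted p of 0.0211 in edgeR). C3 alone made up 40.6% to 43.1% of all reads of the members in control tumors and 33.0% to 34.4% in Sora-treated tumors. The C3 gene lies on chromosome 17 (57203967 to 57228136 in GRCm38.p6). The 250 bases before its start are shown because they hold a match to the C/EBP motif, which belongs to a family of liver and acute-phase factors. The bases run from 250 to 1 before the start, 5′ to 3′ on the gene's strand, and capitals mark the match.
C3, chr17:57228137-57228386, minus strand: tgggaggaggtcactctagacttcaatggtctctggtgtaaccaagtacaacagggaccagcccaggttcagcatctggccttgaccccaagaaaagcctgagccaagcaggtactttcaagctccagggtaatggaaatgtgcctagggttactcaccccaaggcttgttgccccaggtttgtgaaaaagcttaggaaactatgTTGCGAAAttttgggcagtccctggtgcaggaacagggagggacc
The match, TTGCGAAA, lies 45 to 38 bases before the start. The motif TTGCNNAA, searched on both strands, occurs in 9.56% of the 32851 promoters of the RefSeq table, and a match describes the letters only. Among the members, the promoters of C1s1, C9, F11, F9, Klkb1, Fga, Fgb, and Plaur held it as well. Log2 fold changes were 0.62 for Plaur, 0.40 for F11, and 0.12 for F9. They were -0.21 for Fgb, -0.23 for C1s1, -0.31 for Fga, and -1.19 for Klkb1. Of these genes edgeR called only Plaur, and C9 was not tested.

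Cfi, the protease that cuts C3b and C4b and so limits the convertases, fell as well. Its level was 44.0, 68.3, and 47.7 CPM in control tumors and 35.6, 29.3, and 32.2 CPM in Sora-treated tumors, without overlap. The log2 fold change was -0.72 (SE 0.149, adjusted p = 0.03, edgeR), and control tumor 3 stood above the other 5 tumors. Without control tumor 3, the log2 fold change of Cfi was -0.50 and the adjusted p was 0.0403. Cfd, the serine protease that cuts factor B and is made in quantity by adipocytes, went the other way without passing the adjusted threshold. It was at 16.4, 16.0, and 24.2 CPM in control tumors and at 23.4, 39.0, and 32.5 CPM in Sora-treated tumors, and control tumor 4 lay just above Sora-treated tumor 2. Its log2 fold change was 0.75 (SE 0.194, adjusted p = 0.0628, edgeR), and DESeq2 on the same counts gave an adjusted p of 0.0014. Summed markers of adipocytes were 128 to 149 CPM in control tumors and 129 to 161 CPM in Sora-treated tumors, with 7 of 8 markers tested and 6 of them with a positive fold change. This sum is mostly Fabp4, Pnpla2, and Lipe, with log2 fold changes of 0.19, -0.09, and 0.00390. Adipoq, Plin1, Cidec, and Retn, at 1.29 to 6.61 CPM, had log2 fold changes of 0.63, 0.67, 0.73, and 0.56, and none was called (edgeR, Plin1 and Cidec at an unadjusted p under 0.05, adjusted p = 0.216 and 0.177). The part of adipocytes in the Cfd values was not tested. The remaining convertase genes did not pass the test. Cfb (factor B) had a log2 fold change of -0.03 (SE 0.091), C2 one of -0.15 (0.124), and C4b one of -0.21 (0.108), and their groups overlapped. C4a, the near-identical copy of C4b, was not among the genes used here. How the counting treated reads that fit both copies is not given, so C4b is uncertain. C2 and Cfb are direct neighbors on chromosome 17, where Cfb ends at 34862514 and C2 starts at 34862602.

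**Figure D3:**
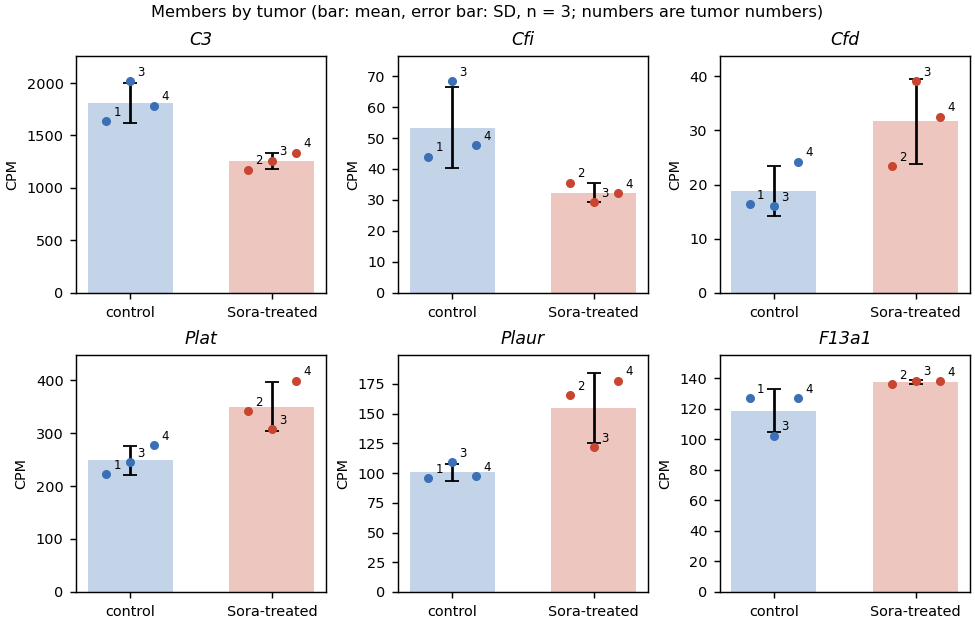
CPM in each tumor (points, with tumor numbers), mean (bar), and SD (error bar, n = 3) for C3, Cfi, Cfd, Plat, Plaur, and F13a1, each axis starting at 0. The control and Sora-treated tumors do not overlap for any of these genes except Cfd.

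The proteases that start the classical route, C1r and C1s, were among the most abundant members and were lower in each Sora-treated tumor without passing the adjusted threshold. C1s1 was at 795, 834, and 812 CPM in control tumors and at 553, 791, and 732 CPM in Sora-treated tumors. Sora-treated tumor 2 was the lowest and Sora-treated tumor 3 lay just below the lowest control tumor. Its log2 fold change was -0.23 (SE 0.119, adjusted p = 0.352, edgeR). C1ra was at 161, 178, and 174 CPM in control tumors and at 126, 159, and 156 CPM in Sora-treated tumors, a log2 fold change of -0.23 (0.095, adjusted p = 0.25). Without Sora-treated tumor 2, the log2 fold changes were -0.10 for C1s1 and -0.12 for C1ra. The FPKM of C1s1 stayed at 3.92 to 4.44 times that of C1ra in all 6 tumors. Both genes have close copies on chromosome 6, C1s2 and C1rb, and the split of reads between copies is uncertain. The lectin route proteases were low. Masp1 was at 16.3 to 23.9 CPM and Masp2 at 0.74 to 1.46 CPM, with log2 fold changes of 0.24 (SE 0.131) and 0.31 (0.339) and overlapping groups.

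The genes of the membrane attack complex were hardly expressed. C6 led this group with 10.6, 6.20, and 7.40 CPM in control tumors and 7.10, 7.92, and 5.80 CPM in Sora-treated tumors. The groups overlapped, with a log2 fold change of -0.22 (SE 0.211, adjusted p = 0.668), which turned to 0.03 without control tumor 1. C8g, which encodes the lipocalin-like chain of C8, was at 1.06, 0.553, and 0.74 CPM in control tumors and 0.32, 0.536, and 0.392 CPM in Sora-treated tumors. These values rest on 10 to 34 reads per tumor, and although the groups did not overlap, the log2 fold change of -0.90 had an SE of 0.431 (adjusted p = 0.317, edgeR). Hc stayed between 0.74 and 1.95 CPM (log2 fold change 0.57, SE 0.355), and C9, with 1 to 7 reads per tumor, was not tested.

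To set the members beside the rest of their pathway, 34 other complement genes (recognition proteins, receptors, and regulators) were listed, of which 33 were in the table and 25 were tested. None was called higher and 3 of 25 were called lower (edgeR, all genes 1.94% and 1.34%). At an unadjusted p under 0.05 there were 1 higher and 8 lower (all genes 8.53% and 8.69%). The counts were the same in DESeq2 (5.61% and 5.65% of 25272 genes). DESeq2 called 8 of them lower at an adjusted p under 0.05 and none higher, beside 3.71% of all genes with an adjusted p called lower and 4% called higher. Of the called genes, C4bp, a soluble cofactor for the cleavage of C4b, was at 50.4, 64.5, and 50.4 CPM in control tumors and at 30.0, 37.0, and 37.6 CPM in Sora-treated tumors (log2 fold change -0.66, adjusted p = 0.0192). Cpn1, a chain of the carboxypeptidase that trims the C3a and C5a peptides, was at 57.8, 63.4, and 63.4 CPM against 35.97, 48.4, and 27.5 CPM (-0.72, adjusted p = 0.0385). For both C4bp and Cpn1, all Sora-treated tumors lay below all control tumors, as they did for C3 and Cfi. With 1 tumor left out, Cpn1 was called without Sora-treated tumor 3 (adjusted p = 0.00221) and had 0.073 to 0.118 in the other 5 cases, while C4bp was not called without Sora-treated tumor 2 (0.0685) or 4 (0.0887). The chains of C1q, made mainly by macrophages, had log2 fold changes of -0.32 (C1qa), -0.34 (C1qb), and -0.31 (C1qc) with adjusted p-values of 0.104, 0.152, and 0.138. C3ar1, the receptor of C3a, had one of -0.30 (adjusted p = 0.0803). These 4 genes did not pass in edgeR and are among those that DESeq2 called lower (adjusted p = 0.019 to 0.0372). In edgeR all 4 were called without a filter, and C1qc and C3ar1 without Sora-treated tumor 3. The median over the 25 genes was -0.07.

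The upper part of the coagulation cascade was present without a called difference. F7, which encodes factor VII, was at 47.6, 65.2, and 33.1 CPM in control tumors and at 38.2, 39.4, and 35.5 CPM in Sora-treated tumors. The control tumors spread around the treated ones, and the log2 fold change was -0.37 (SE 0.187, adjusted p = 0.356). F10, which encodes factor X and lies beside F7 on chromosome 8, was at 42.5, 58.4, and 37.0 CPM against 38.7, 35.2, and 42.5 CPM (log2 fold change -0.24, SE 0.147, adjusted p = 0.443). Control tumor 3 held the highest value of both genes, and without it the log2 fold changes were -0.10 for F7 and -0.03 for F10. Without control tumor 4, they were -0.58 (adjusted p = 0.0682) and -0.38 (adjusted p = 0.214). The FPKM of F7 was 1.22 to 1.64 times that of F10 in every tumor. F3, the tissue factor that starts the cascade, was at 20.8 to 28.6 CPM (log2 fold change 0.12, SE 0.119). Its inhibitor Tfpi was at 19.4 to 22.4 CPM (0.02, 0.097), and F5, the cofactor of factor X, was at 15.6 to 22.9 CPM (0.05, 0.141). F2, which encodes prothrombin, the substrate of activated factor X, was at 1.68 to 4.69 CPM (log2 fold change -0.20, SE 0.38). It averaged 1.15 FPKM, against 23.4 FPKM for F7 and 15.7 FPKM for F10.

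Genes of the contact and intrinsic pathway were near the limit of detection except F11. F11, factor XI, was at 4.17, 5.37, and 6.31 CPM in control tumors and at 5.75, 8.52, and 6.70 CPM in Sora-treated tumors, with overlapping groups and a log2 fold change of 0.40 (SE 0.209, adjusted p = 0.364). Klkb1, plasma prekallikrein, was at 0.436, 0.43, and 0.411 CPM in control tumors and at 0.256, 0.149, and 0.151 CPM in Sora-treated tumors, all 3 lower. These are 14, 14, and 15 reads against 8, 5, and 5 reads, and the log2 fold change of -1.19 had an SE of 0.484 (adjusted p = 0.228, edgeR). F9 had 5 to 15 reads per tumor (log2 fold change 0.12, SE 0.533), and F12 and Kng1, with at most 4 and 12 reads, were not tested.

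The 3 fibrinogen chains are joined in equal numbers in the secreted protein, and their genes lie side by side on chromosome 3, yet the level of Fgb was far above those of Fga and Fgg. Fgb, the beta chain, was at 61.0, 64.6, and 73.4 FPKM in control tumors and at 51.3, 52.7, and 66.2 FPKM in Sora-treated tumors. Fga, the alpha chain, was at 0.123, 0.196, and 0.746 FPKM in control tumors and at 0.392, 0.0625, and 0.4 FPKM in Sora-treated tumors. Fgg, the gamma chain, was at 0.288, 0.227, and 1.07 FPKM in control tumors and at 0.259, 0.271, and 0.402 FPKM in Sora-treated tumors. The FPKM of Fgb was thus 98.4 to 844 times that of Fga and 68.5 to 285 times that of Fgg over the 6 tumors. Fga and Fgg were closer to each other, with Fga at 0.231 to 1.51 times the FPKM of Fgg. Control tumor 4 held the highest value of all 3 chains. Between groups, no chain passed the test, with log2 fold changes of -0.21 for Fgb (SE 0.117, adjusted p = 0.399), -0.31 for Fga (0.716, adjusted p = 0.87), and -0.75 for Fgg (0.572, adjusted p = 0.56).

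**Figure D4:**
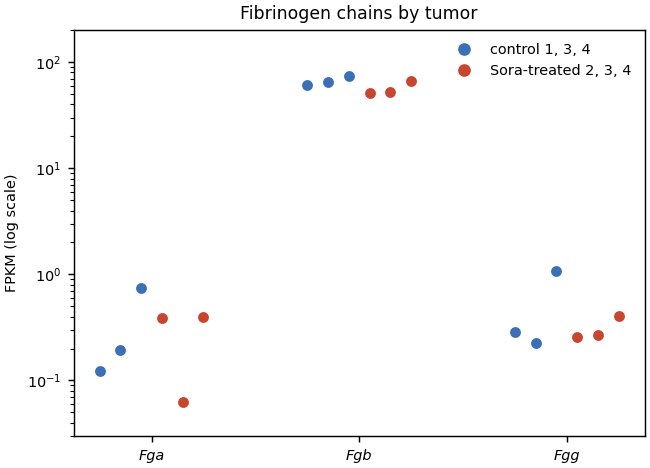
FPKM on a log scale of the 3 fibrinogen chains in each tumor, with control tumors 1, 3, and 4 in blue and Sora-treated tumors 2, 3, and 4 in red, from left to right. Fgb lies between 51.3 and 73.4 FPKM in all 6 tumors, while the highest values of Fga and Fgg are 0.746 and 1.07 FPKM.

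The bases before the starts of these genes are shown beside each other because the genes are neighbors and the level of Fgb is unlike the others. Capitals mark matches to the C/EBP motif (TTGCNNAA) and to the AP-1 motif (TGANTCA).
Fga, chr3:83025903-83026075, plus strand: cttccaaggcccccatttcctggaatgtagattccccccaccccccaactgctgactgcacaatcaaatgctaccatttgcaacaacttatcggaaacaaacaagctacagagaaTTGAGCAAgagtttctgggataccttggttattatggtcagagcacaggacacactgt
Fgb, chr3:83049864-83050113, minus strand: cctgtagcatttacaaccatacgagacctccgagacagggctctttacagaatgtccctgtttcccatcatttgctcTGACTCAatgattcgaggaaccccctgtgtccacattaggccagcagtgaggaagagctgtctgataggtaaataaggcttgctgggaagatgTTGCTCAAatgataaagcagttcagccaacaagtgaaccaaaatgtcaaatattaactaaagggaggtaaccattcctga
Fgg, chr3:83007474-83007723, plus strand: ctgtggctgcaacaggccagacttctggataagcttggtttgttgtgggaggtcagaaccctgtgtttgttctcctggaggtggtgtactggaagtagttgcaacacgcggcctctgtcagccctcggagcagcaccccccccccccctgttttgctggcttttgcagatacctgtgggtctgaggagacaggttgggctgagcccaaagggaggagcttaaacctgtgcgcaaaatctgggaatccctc
The windows of Fgb and Fgg end 1 base before the start of the gene, and that of Fga ends 78 bases before it, since a GENCODE M21 transcript of Fga begins at 83026076, the next base. Fgb held TTGCTCAA 80 to 73 bases and TGACTCA 173 to 167 bases before its start, Fga held TTGAGCAA (the motif read on the other strand) 135 to 128 bases before its start, and Fgg held neither. None of the 3 held TATAAA, which occurs in 12.4% of all promoters, and no match says only that these letters are not in this window. The AP-1 motif occurs in 6.75% of all promoters.

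F13a1, the catalytic chain of factor XIII, was higher in each Sora-treated tumor without passing the adjusted threshold. It was at 127, 102, and 127 CPM in control tumors and at 136, 138, and 138 CPM in Sora-treated tumors. The treated tumors were tightly grouped, with an SD of 1.203 CPM beside 14.2 CPM in the control tumors. The log2 fold change was 0.21 (SE 0.09, adjusted p = 0.253, edgeR). Its carrier chain F13b had no read. F13a1 is known from macrophages and platelets. Macrophage markers, all 10 tested, 2 with a positive and 8 with a negative fold change, summed to 1053 to 1134 CPM in control tumors and 877 to 982 CPM in Sora-treated tumors. Platelet markers, 4 of 8 tested with Gp9 at 0, summed to 38.3 to 47.0 CPM and 40.6 to 48.2 CPM. The part of these cells in the F13a1 values was not tested.

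The activator and receptor side of the plasminogen system held the members that rose with Sora. Plat, the gene of tPA, was at 222, 245, and 277 CPM in control tumors and at 342, 307, and 399 CPM in Sora-treated tumors. All treated tumors lay above all control tumors, and Sora-treated tumor 3 was the nearest to them. The means were 248 ± 27.6 and 349 ± 46.3 CPM (SD, n = 3), 1.41-fold higher, with a log2 fold change of 0.49 (SE 0.11, adjusted p = 0.0392, edgeR). Plau, the gene of uPA, differed little, with 84.6, 112, and 82.9 CPM in control tumors and 84.2, 88.1, and 95.2 CPM in Sora-treated tumors (log2 fold change -0.06, SE 0.112, adjusted p = 0.829). As FPKM, Plau therefore stood at 0.403, 0.484, and 0.317 of Plat in control tumors and at 0.261, 0.304, and 0.253 of Plat in Sora-treated tumors.

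Plaur, the receptor that holds uPA on the cell surface, was at 95.8, 109, and 97.4 CPM in control tumors and at 165, 122, and 178 CPM in Sora-treated tumors. Here too Sora-treated tumor 3 was nearest to the control tumors, with no overlap. The means were 101 ± 7.27 and 155 ± 29.5 CPM (SD, n = 3), 1.54-fold higher, with a log2 fold change of 0.62 (SE 0.125, adjusted p = 0.0275, edgeR). The promoter of Plaur, on chromosome 7, is shown for its match to the AP-1 motif, which is bound by FOS and JUN proteins, with a C/EBP match next to it.
Plaur, chr7:24462233-24462482, plus strand: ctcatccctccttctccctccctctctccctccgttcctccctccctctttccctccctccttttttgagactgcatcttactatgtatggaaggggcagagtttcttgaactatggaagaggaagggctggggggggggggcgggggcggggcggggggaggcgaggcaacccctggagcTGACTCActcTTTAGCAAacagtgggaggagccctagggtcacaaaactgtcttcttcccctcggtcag
In this window TGACTCA lies 69 to 63 bases and TTTAGCAA 59 to 52 bases before the start of the transcript in the promoter table. The annotated gene reaches further upstream, to 24460937, so the window lies inside its span. Of the 40 members, 29 had a promoter entry, and AP-1 matches were found in those of C8g, F3, F2, Fgb, and Plaur. Of these 5 genes, Plaur was called by edgeR, and the log2 fold changes of the others were 0.12 for F3, -0.20 for F2, -0.21 for Fgb, and -0.90 for C8g. Neutrophils, monocytes, and macrophages carry the uPA receptor. The sum of neutrophil markers was 79.3, 79.6, and 70.0 CPM in control tumors and 158, 102, and 110 CPM in Sora-treated tumors. Of 8 markers, 6 were tested and all 6 had a positive fold change, while Ly6g and Camp lay near 0. In edgeR 1 was called (S100a9, all genes 1.94%) and 5 had an unadjusted p under 0.05 (all genes 8.53%). The sum of macrophage markers went the other way, from 1053 to 1134 CPM in control tumors to 877 to 982 CPM in Sora-treated tumors. The part of these cells in the Plaur values was not tested.

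Thrombomodulin (Thbd) and protein C (Proc), which turn thrombin into an anticoagulant, were present at modest levels. Proc was at 12.4, 17.9, and 14.3 CPM in control tumors and at 15.7, 23.1, and 16.4 CPM in Sora-treated tumors, with a log2 fold change of 0.31 (SE 0.17, adjusted p = 0.396) and overlapping groups. Thbd was at 8.01 to 9.78 CPM and 8.75 to 11.7 CPM (log2 fold change 0.22, SE 0.152). Of 27 other coagulation and fibrinolysis genes, 26 were in the table, 23 were tested, 1 was called higher, and none was called lower (edgeR, all genes 1.94% and 1.34%). At an unadjusted p under 0.05 there were 4 higher and 2 lower in edgeR (all genes 8.53% and 8.69%). DESeq2 gave 4 and 3 (5.61% and 5.65% of 25272 genes). DESeq2 called 3 higher and 2 lower at an adjusted p under 0.05 (all genes 4% and 3.71%). The called gene was Hgfac, the thrombin-activated protease that activates hepatocyte growth factor, with 44.1, 49.7, and 50.6 CPM in control tumors and 60.0, 59.6, and 61.4 CPM in Sora-treated tumors (log2 fold change 0.33, adjusted p = 0.0447). With 1 tumor left out, Hgfac was called without Sora-treated tumor 3 (adjusted p = 0.0424) and had 0.0721 to 0.185 in the other 5 cases. Anxa2 and S100a10, which together form a surface receptor for tPA and plasminogen, were at 1081 to 1358 and 460 to 585 CPM in control tumors. In Sora-treated tumors they were at 1434 to 1836 and 600 to 706 CPM. Their groups did not overlap, and their log2 fold changes of 0.44 (adjusted p = 0.067) and 0.31 (adjusted p = 0.153) did not pass the threshold in edgeR, while DESeq2 called both (adjusted p = 0.00145 and 0.0372). Total counts, no filter, and leaving out Sora-treated tumor 3 or control tumor 3 also led edgeR to call Anxa2. Procr, the receptor of protein C, had one of 0.22 (adjusted p = 0.194). The median over the 23 genes was -0.08.

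Summed by system, the 15 complement genes in the table took 3227, 3778, and 3432 CPM in control tumors and 2429, 2888, and 2858 CPM in Sora-treated tumors. The 22 coagulation and fibrinolysis genes took 812, 902, and 882 CPM and 992, 931, and 1107 CPM. The groups did not overlap in either sum, lower with Sora for complement and higher for coagulation and fibrinolysis, where Plat, Plau, Plaur, and Plg together took 403 to 466 CPM in control tumors and 517 to 672 CPM in Sora-treated tumors. Without the called genes C3 and Cfi, a choice made after their values were seen, the other 13 complement genes summed to 1545, 1694, and 1600 CPM in control tumors and 1218, 1599, and 1491 CPM in Sora-treated tumors, and the groups overlapped, as they did without C3 alone. Likewise, without Plat and Plaur the other 20 coagulation and fibrinolysis genes summed to 494, 547, and 507 CPM in control tumors and 485, 502, and 530 CPM in Sora-treated tumors, and the groups overlapped. The sums of the tissue factor, contact, common, fibrinogen, and protein C genes each overlapped as well. With 3 tumors against 3, an exact permutation test of such a sum cannot go below p = 0.1. The complement sum is made up mostly of C3 and C1s1. Of the reads of all members, coagulation genes included, C3 and C1s1 together held 60.2% to 60.9% in control tumors and 50.5% to 53.7% in Sora-treated tumors.

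Each called member was followed with 1 tumor left out at a time, where the direction of all 4 held in every case while the adjusted p did not (edgeR). C3 had adjusted p-values of 0.109, 0.0911, and 0.0635 when Sora-treated tumor 2, Sora-treated tumor 4, or control tumor 4 was left out, and 0.0242 to 0.0435 without the others. Its log2 fold change ranged from -0.60 to -0.45. Cfi was called without control tumors 1 and 3 and not without Sora-treated tumors 2 (0.0633), 3 (0.0511), and 4 (0.138) or control tumor 4 (0.0635). Plat was called only without Sora-treated tumor 3 (0.0135), with 0.0576 to 0.17 in the other cases and log2 fold changes of 0.39 to 0.58. Plaur was called without Sora-treated tumor 3 (0.00141) and control tumor 3 (0.0418) and had 0.0829 to 0.134 without control tumor 1, control tumor 4, or Sora-treated tumors 2 and 4. Cfd was called without Sora-treated tumor 2 (0.045). In the 5 tumors with deposited counts, that is without Sora-treated tumor 4, no member was called, 5 of all genes were called, and 5 of 30 members tested were higher and 4 lower at an unadjusted p under 0.05, where all genes gave 6.12% and 5.8%. On log2(FPKM + 1), for genes that reached 1 FPKM in 3 or more tumors, limma called C3 (adjusted p = 0.0378) and gave 0.0668 to 0.0778 for Cfi, Plat, and Plaur.

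**Figure D5:**
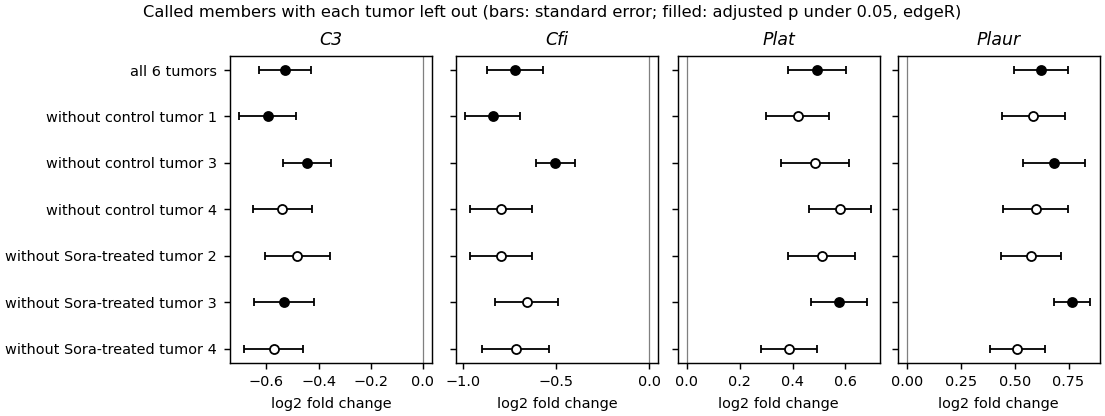
Log2 fold change with standard error (edgeR) of C3, Cfi, Plat, and Plaur in all 6 tumors and with each tumor left out. Filled points have an adjusted p under 0.05: the sign is the same in every row, and Plat is filled only with all 6 tumors and without Sora-treated tumor 3.

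Levels of cell markers are given beside these results, since in whole tumors fewer cells of a type and less RNA per cell cannot be told apart. Hepatocytes make most complement proteins, and fibroblasts and macrophages make C3 as well. Fibroblast markers, all 10 tested, summed to 8313 to 8507 CPM in control tumors and 5763 to 7209 CPM in Sora-treated tumors. Of these 10, 8 had a negative fold change, 1 was called (Postn), and 4 were lower and 0 higher at an unadjusted p under 0.05. Of the 10 macrophage markers, 8 had a negative fold change, 1 was called (Mertk), and 4 were lower and 1 higher at that p. Over all genes, edgeR called 1.34% lower, and 8.69% were lower and 8.53% higher at that p. Hepatoma markers summed to 4955 to 6548 CPM and 4928 to 5167 CPM, and their members split: Alb had a log2 fold change of -0.55 (adjusted p = 0.041) and Ttr one of -2.15 (adjusted p = 0.00555), while Hnf4a had one of 0.80 (adjusted p = 0.013) and Apoa1 one of 1.03 (adjusted p = 0.047). Markers of red blood cells, all 5 with a negative fold change and 1 called, summed to 47.0 to 129 CPM and 32.9 to 44.2 CPM. All 5 were lower at an unadjusted p under 0.05 in edgeR (all genes 8.69%). Endothelial markers, a source of Plat and Thbd, overlapped between the groups, with 387 to 432 CPM and 339 to 416 CPM, 3 of 10 positive fold changes, and none called (edgeR, 0 higher and 1 lower at an unadjusted p under 0.05). Skeletal muscle markers (8 of 8 with a positive fold change, none called by edgeR, 1 at an unadjusted p under 0.05) overlapped as well, with 166 to 234 and 189 to 267 CPM. Markers of keratinocytes and skin, 8 of 8 with a positive fold change, none called by edgeR, and 1 at an unadjusted p under 0.05, set control tumor 1 (1071 CPM) apart from control tumors 3 (324 CPM) and 4 (402 CPM), beside 684 to 966 CPM in Sora-treated tumors. The part of these cell types in the differences between the groups was not tested.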

How the data were processed

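Total RNA of 6 tumors was sequenced, with 1 library per tumor. The authors deposited counts, the whole numbers of reads per gene without normalization, for 5 tumors in the table used here, and FPKM for all 6. The paper's methods name Bowtie2, GRCm38, and an expectation maximization algorithm, whereas the submitters' processing notes name fastp, HISAT2, HTSeq, DESeq2, R 3.2.0, and GRCm39. The annotation and the use of strand are not given in the sources used here, so overlapping genes and close copies are uncertain. The tables hold symbols only, and coordinates and promoters are those of RefSeq for GRCm38.p6, matched by symbol.

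In the tumors held by both tables, FPKM followed from the count, 1 length per gene, and the total. The counts of Sora-treated tumor 4 were computed in this way for 20951 genes, 100% of them within 0.001 of a whole number, and 342 genes with 512 reads stayed at 0. The same calculation returned the totals and all counts of 20969 to 21229 genes in the 5 known tumors.

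The 16513 genes that reached 10 counts in 3 or more tumors entered the quasi-likelihood test of edgeR 4.0.16 (TMM scaling, functions glmQLFit and glmQLFTest without robust estimation, no covariate), run in R 4.3.3. P-values were adjusted over all of these genes after Benjamini and Hochberg. The standard error is the size of the log2 fold change divided by the square root of F. The biological coefficient of variation was 0.132. Alternatives were DESeq2 1.42.0, its size factors or total counts in edgeR, no filter or at least 50 counts on average, the replicate number as a block, each tumor left out, and limma 3.58.1 on log2(FPKM + 1) or log2(FPKM + 0.1). The fits were tested on simulated data. Values per tumor are given for members with an adjusted or unadjusted p under 0.05, for those whose groups do not overlap, and for the most abundant member of each role. The members, the lists, and the marker lists were chosen with earlier results of these data known. No set test was run. Of the other complement genes, 1 called gene is not reported here.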

Additional observations from a re-analysis of the deposited data

How the results depend on the processing

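With edgeR 543 genes were called in all, and this count was 1194 with DESeq2, 1147 without a filter, 125 with the replicate block, 198 on log2(FPKM + 1), 38 on log2(FPKM + 0.1), and 0 on log2(FPKM + 1) of all genes (limma, 1636 higher and 1692 lower at an unadjusted p under 0.05). Of the members, 2 called higher and 2 called lower remained 2 and 2 under total counts, under the stricter filter, and under DESeq2's size factors, and DESeq2 and the fit without a filter added Cfd. On FPKM, limma called 0 members higher in all 3 fits and 0 lower on log2(FPKM + 0.1) and on all genes, and 1 lower on log2(FPKM + 1). At an unadjusted p under 0.05 log2(FPKM + 1) and log2(FPKM + 0.1), with 24 members and 12305 genes tested, each gave 3 members higher and 3 lower (all genes 8.89% and 9.61%, and 8.4% and 9.48%), and the fit on all genes, with 35 members, gave 3 and 5 (6.39% and 6.61%). The other complement genes (3 called) gave 8 with DESeq2, 8 without a filter, 1 on log2(FPKM + 1), 0 on log2(FPKM + 0.1), and 0 on all genes, with 1 higher and 8 lower at an unadjusted p under 0.05 in each FPKM fit. The other coagulation genes (1 called) gave 5 with DESeq2, 4 without a filter, 2 with total counts, and 0 in the 3 FPKM fits, with 4 higher and 1 or 2 lower at an unadjusted p under 0.05. With 1 tumor left out, the calls ranged from 5 to 1145 for all genes (the lowest without Sora-treated tumor 4, the highest without Sora-treated tumor 3), from 0 to 2 for members higher and for members lower, from 0 to 5 for the other complement genes, and from 0 to 3 for the other coagulation genes. The median of the members ranged from -0.12 without control tumor 1 to 0.0748 without control tumor 4 and stayed within 0.0443, the spread of that median, of its value of -0.06 in the other alternatives except without control tumor 3 (-0.0059). C6 ranged from -0.372 to 0.0281, the latter without control tumor 1. The cause of these changes was not tested. Tumors of the same number did not deviate together (correlations of -0.0326 for number 3 and -0.0736 for number 4). Only these numbers occur in both groups, so the values cannot decide whether the number pairs the tumors. With the replicate block, edgeR called 0 members higher and 1 lower (Cfi, adjusted p = 0.0299; 4 and 2 at an unadjusted p under 0.05, where all genes gave 5.27% and 4.1%), 0 other complement genes (0 higher and 5 lower), and 0 other coagulation genes (1 and 1), and C6 had a log2 fold change of 0.000684. Reads limit what can be said of genes with few reads, such as Klkb1, C8g, F9, Fga, and Fgg.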
